A study of Mus musculus with 9 samples.

Results

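The interleukin-12 (IL-12) family subunits are 5 genes, Il12a, Il12b, Il23a, Il27 and Ebi3, taken by gene symbol from a total of 24187 genes in 2 tables, and all 5 were in both tables. RNA was sequenced from bone-marrow-derived macrophages of C57BL/6 mice aged 8 weeks, grown from marrow for 6 days with 10 ng/ml macrophage colony-stimulating factor. The 3 groups had 3 libraries each: control cells kept in medium, cells given the bacterial lipid lipopolysaccharide (LPS) at 500 ng/ml, and cells given LPS with NCT503 at 50 µM, all for 6 h. NCT503 is an inhibitor of phosphoglycerate dehydrogenase (PHGDH), the enzyme at the entry to serine synthesis. The labels name no vehicle for NCT503, and no group received it without LPS. They do not say whether replicates came from separate animals or cultures, so the p-values measure only the spread between these libraries, which may be technical.

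Cytokines of this family are pairs of an alpha chain, folded as a helical bundle like IL-6, and a beta chain that resembles a soluble cytokine receptor. Il12b (p40) is the beta chain of IL-12, which it forms with Il12a (p35), and of IL-23, which it forms with Il23a (p19). Ebi3 is the beta chain of IL-27, with Il27 (p28), and of IL-35, with Il12a. Macrophages and dendritic cells make IL-12, IL-23 and IL-27 after Toll-like receptor signals, and these cytokines steer T and natural killer cells: IL-12 towards interferon gamma, IL-23 towards IL-17, while IL-27 also restrains inflammation.

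The genes lie on different chromosomes (GRCm38/mm10). Il12a is at chromosome 3, 68690644 to 68698547 on the plus strand, Il12b at chromosome 11, 44400063 to 44414033 on the plus strand, and Ebi3 at chromosome 17, 55952623 to 55957021 on the plus strand. Il23a is at chromosome 10, 128296139 to 128298752, and Il27 at chromosome 7, 126589010 to 126594941, both on the minus strand. Counts are for whole genes, so transcripts of a gene were not told apart. In GENCODE M21 the exons of Il12a, Il12b and Il23a overlap no other gene's exons. Of the 1021 exon bases of Il27, 103 overlap Apobr, and of the 1154 of Ebi3, 270 overlap Gm16712. The strand setting of the counting is not given in the sources used here, so shared reads cannot be assigned. Apobr was at 2433 to 3111 normalized reads in control, 2052 to 2639 with LPS and 2105 to 2308 with LPS and NCT503, and Gm16712 at 11.2 to 27.3, 73.6 to 105 and 28.1 to 67.3. Their part in the values of Il27 and Ebi3 was not tested.

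The promoter reference used here held no entry for Il27 or Il23a. Promoter sequences are shown for Il12b, called higher with NCT503 against LPS, and for Il12a and Ebi3, both called lower. Each is the 250 bases before a RefSeq start (GRCm38.p6, plus strand), 5′ to 3′, with motif matches in capitals. They are chr11:44399813-44400062 for Il12b, chr3:68690394-68690643 for the start of Il12a that matches the gene's annotated start, and chr17:55952373-55952622 for Ebi3.
Il12b: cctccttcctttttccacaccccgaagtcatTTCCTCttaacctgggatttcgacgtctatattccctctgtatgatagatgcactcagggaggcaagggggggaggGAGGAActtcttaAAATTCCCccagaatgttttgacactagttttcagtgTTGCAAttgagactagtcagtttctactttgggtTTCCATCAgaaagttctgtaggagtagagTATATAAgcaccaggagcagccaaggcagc
Il12a: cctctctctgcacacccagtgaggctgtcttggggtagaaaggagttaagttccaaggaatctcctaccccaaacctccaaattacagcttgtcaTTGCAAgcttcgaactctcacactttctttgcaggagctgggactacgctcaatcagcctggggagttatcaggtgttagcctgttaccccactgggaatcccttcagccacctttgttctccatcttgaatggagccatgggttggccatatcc
Ebi3: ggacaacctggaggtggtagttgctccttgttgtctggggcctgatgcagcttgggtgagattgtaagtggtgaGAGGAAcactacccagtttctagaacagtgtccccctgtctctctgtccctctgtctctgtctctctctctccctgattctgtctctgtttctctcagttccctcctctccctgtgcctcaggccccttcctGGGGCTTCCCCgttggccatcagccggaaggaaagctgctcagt

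Motifs were searched on both strands. The full NF-κB motif was GGG, any 5 bases and CC, and a partial NF-κB site was GGGAATTT. The interferon-stimulated response element was GAAA, any 2 bases and GAAA again. The core bound by C/EBP factors was TTGCAA. The motif of AP-1 was written as TGANTCA. That of the stress factor ATF4 was TGATGNAA. The TATA box was searched as TATANAA. The motif of the myeloid factor PU.1 was GAGGAA. Il12b held the partial NF-κB site 130 to 123 bases before the start, a C/EBP core at 93 to 88 and a TATA box at 30 to 24, with 2 PU.1 matches and 1 ATF4 match. Of all 32851 promoters, 0.843% hold the partial NF-κB site, 5.34% the C/EBP core, 10.4% the TATA box, 23.3% the PU.1 motif and 3.45% the ATF4 motif. The motifs were chosen with the sequences in view, so these shares cannot show that a match is unusual. In the Il12a window only the C/EBP core matched, at 155 to 150 bases. The window before a second RefSeq start of Il12a, chr3:68691174-68691423, held the full NF-κB motif. Ebi3 held the full NF-κB motif in 2 overlapping registers, each matching on both strands, at 44 to 34 bases, and a PU.1 motif at 176 to 171. The full motif is loose and is found in 45.8% of promoters. No window matched the interferon element or AP-1, which 2.98% and 6.75% of promoters hold. These matches describe letters, not binding.

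The 3′ untranslated regions differ in AU-rich words, which are bound by decay factors such as tristetraprolin. The heptamer TATTTAT was counted in the longest GENCODE M21 3′ untranslated region of each gene. It occurred 5 times in the 497 bases of Il12a, 5 times in the 657 of Il23a, 4 times in the 285 of Il27, once in the 797 of Il12b and not in the 245 of Ebi3. Among genes with a region of similar length, 12.6%, 17.5%, 7.12%, 19.9% and 6.75% held at least 1 copy. As many copies as the subunit or more were held by 0.136% for Il12a, 0.198% for Il23a, 0.224% for Il27 and 19.9% for Il12b. The shorter word ATTTA occurred 6 times in each of Il12a, Il12b and Il23a, 5 times in Il27 and once in Ebi3, so by this count Il12b did not stand below Il12a and Il23a. The 30-base windows with most copies are shown for the genes with many copies and for Il12b, with the heptamers in capitals.
Il12a: ccTATTTATATTTATTTATtttcTATTTAT
Il23a: gtatagatgatggtTATTTATtcTATTTAT
Il27: cagaTATTTATttcttggaTATTTATTTAT
Il12b: ttgaaatatttaagtaatttatgTATTTAT

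Values below are normalized reads, that is reads divided by a size factor fitted over all 9 libraries, and levels of different genes are compared only per kilobase (kb) of gene length. Log2 fold changes (± SE) and adjusted p-values come from limma over all genes of a comparison, with genes called at an adjusted p under 0.05. The libraries held 20295862 to 23599685 reads over the 21434 genes of both tables. LPS with NCT503 replicate 2 stood apart. Its root-mean-square log2 difference from replicates 1 and 3, over 10683 genes, was 0.638 and 0.593, against 0.248 between those 2 libraries and 0.268 to 0.534 within the other groups. All 7 macrophage markers had reads in every group, with a summed level of 167611 to 219741 normalized reads per kb in control, 210347 to 241878 with LPS and 107135 to 143669 with LPS and NCT503. With NCT503 against LPS 3 of the 7 fell, where 15.7% of all genes were called lower: Fcgr1 (log2 fold change −2.75), Lyz2 (−1.14) and Mertk (−0.88). Itgam (−0.89), Adgre1 (−0.36), Csf1r (0.08) and Cd68 (0.03) did not pass the test, and with libraries scaled by their totals alone (CPM scaling) 2 of 7 fell. CPM scaling also shifted the calls over all genes, which are the background for each CPM count below. With LPS it called 2091 of 20314 genes higher and 8535 lower, with a median log2 fold change of −0.69. With NCT503 against LPS it called 4405 of 20122 higher and 2136 lower, with a median of 0.31.

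LPS raised 4 of the 5 subunits. All 4 were also higher in every LPS library than in any control library. Of all 19975 genes tested 41.8% were called, 20.5% higher and 21.4% lower. In 50.8% of them the libraries of the groups did not overlap, 24.4% higher and 26.5% lower with LPS. The rises were steepest for Il12b, Il27 and Il12a, which had few reads in control, and smaller for Ebi3, which was already abundant there.

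Il12b, the shared beta chain, was at 13.0, 7.0 and 3.21 normalized reads in the control libraries and at 2659.9, 1536 and 1462 in the LPS libraries. The group means were 7.73 ± 4.93 and 1886 ± 671 (SD, n = 3), and the log2 fold change was 7.88 ± 0.39 (adjusted p = 3.67e-08). LPS replicate 1 was the highest LPS library, and control replicate 1 the highest control library.

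Il12a, the alpha chain of IL-12, had 4, 6 and 2 reads in the control libraries, or 2.73, 4.2 and 1.60 normalized reads. It stood at 494, 449 and 403 normalized reads with LPS, a log2 fold change of 6.94 ± 0.31 (adjusted p = 1.91e-08). The ratio of summed reads, scaled by the size factors, was 155, with a 95% counting interval of 88.6 to 302 that leaves out the spread between libraries. The control level rests on 12 reads in all.

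Il27, the alpha chain of IL-27, rose from 28.0, 20.3 and 28.8 normalized reads to 4401, 6804 and 6217 (log2 fold change 7.76 ± 0.21, adjusted p = 4.68e-10). Its partner Ebi3 rose from 657, 848 and 974 to 4419, 4841 and 4289 (2.47 ± 0.17, adjusted p = 4.522e-07). The LPS libraries of Ebi3 were close together, with a coefficient of variation of 6.39%, against 21.6% for Il27 and 35.6% for Il12b.

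Il23a, the alpha chain of IL-23, was barely detected. The control libraries had 5, 0 and 1 reads and the LPS libraries 3, 2 and 2, so the groups overlapped. The control library with 0 reads allows up to 2.10 normalized reads, taken as 3 counts. The log2 fold change was 0.99 ± 0.62 (adjusted p = 0.229), and the ratio of summed reads was 2.04 with a counting interval of 0.588 to 7.36. A change of Il23a with LPS was not detectable at this depth.

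**Figure D1:**
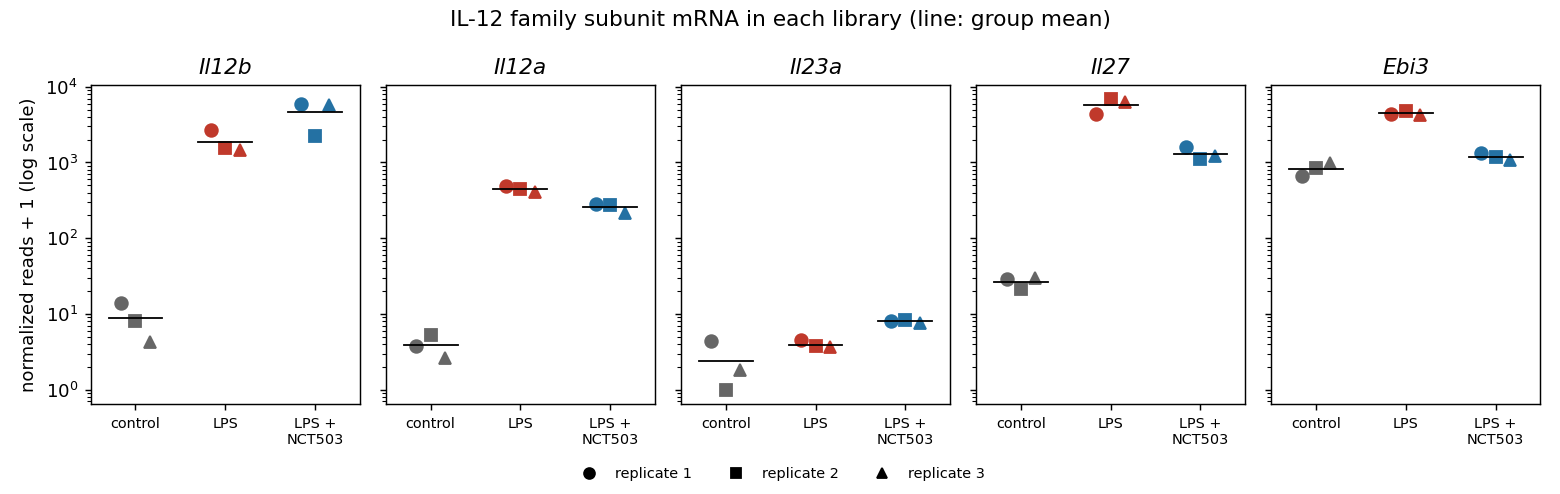
Normalized reads plus 1 (log scale) of the 5 subunits in each of the 9 libraries, with replicates as symbols and group means as lines. With NCT503, Il27, Ebi3 and Il12a lay below every LPS library, whereas Il12b lay at 5926 and 5742 in replicates 1 and 3 and at 2215 in replicate 2.

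With NCT503 added to LPS, Il27, Ebi3 and Il12a fell and Il12b rose. That is 3 of 5 called lower and 1 called higher, where 32.6% of the 19795 genes tested were called, 15.7% lower and 16.9% higher. In 3 subunits every library with NCT503 lay below every LPS library, and in Il23a every one lay above. Of all genes 44.9% had groups apart in this way, 22% lower and 22.9% higher. Il12b was called higher, but its groups overlapped. The contrast between Il12b and the other subunits was in view when these genes were chosen, so it is a description and was given no test. The LPS libraries serve in this comparison and in the previous one.

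Il27 was at 1613, 1095 and 1201 normalized reads with NCT503, against 4401 to 6804 with LPS alone. The log2 fold change was −2.15 ± 0.22 (adjusted p = 2.605e-05). Ebi3 was at 1343, 1174 and 1078, against 4289 to 4841, a log2 fold change of −1.92 ± 0.16 (adjusted p = 9.03e-06). Both chains of IL-27 were lower, and the highest library with NCT503 lay far below the lowest LPS library for each. Il12a was at 278, 269 and 218, against 403 to 494 (−0.81 ± 0.19, adjusted p = 0.00704). For Il12a the call is lost when libraries are scaled by their totals (CPM scaling; −0.57, adjusted p = 0.0567, with a range of 0.000401 to 0.0567 over 14 alternatives).

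Il12b was at 5926, 2215 and 5742 normalized reads with NCT503, against 2659.9, 1536 and 1462 with LPS. Replicates 1 and 3 lay above every LPS library, while replicate 2 lay below LPS replicate 1. The group means were 4628 ± 2091 and 1886 ± 671, and the log2 fold change was 1.22 ± 0.36 (adjusted p = 0.0222). Without LPS with NCT503 replicate 2 it was 1.69 (adjusted p = 0.000279), and the call was lost without replicate 1 (0.98, adjusted p = 0.0894) or replicate 3 (1.00, adjusted p = 0.0980) of that group. It was also lost without LPS replicate 2 (1.11, adjusted p = 0.0908) or 3 (1.06, adjusted p = 0.1), and with all 9 libraries in 1 fit (1.22, adjusted p = 0.0700). Over 14 alternatives the adjusted p ranged from 0.000279 to 0.1, and 9 passed. In the authors' deposited table Il12b had a log2 fold change of 1.30 and an adjusted p of 0.000779.

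The library in which Il12b was low also differed in Itgax, which encodes the integrin CD11c of dendritic cells and some macrophages. Itgax was at 9371 normalized reads in LPS with NCT503 replicate 2, against 561 and 548 in replicates 1 and 3 and 656 to 713 with LPS. Of the 8 dendritic cell markers 7 were in both tables, Cd209a being the exception, and their summed level was 144 to 164 per kb in control, 464 to 522 with LPS and 262 to 2038 with NCT503. Of the 7, Ccr7 was called lower with NCT503 against LPS (−1.63) and none was called higher, except Xcr1 under CPM scaling. Xcr1 was at 63.2, 22.9 and 61.7 normalized reads with NCT503, lowest in replicate 2 as Il12b was, and at 10.4, 19.1 and 31.5 with LPS. In the NCT503 libraries Ccr7 was at 148 to 263, Zbtb46 at 33.6 to 44.9, Flt3 at 3.12 to 4.33 and Clec9a at 1.04 to 9.17. The part of these differences in the Il12b values was not tested.

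Il23a had 7, 7 and 6 reads in the libraries with NCT503, all above the 3, 2 and 2 with LPS. The log2 fold change was 0.99 ± 0.46 (adjusted p = 0.121). The ratio of summed reads, 20 against 7, was 2.36 with a counting interval of 0.957 to 6.60. The values separate by 3 reads or more in each library, but the difference lies within counting error.

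**Figure D2:**
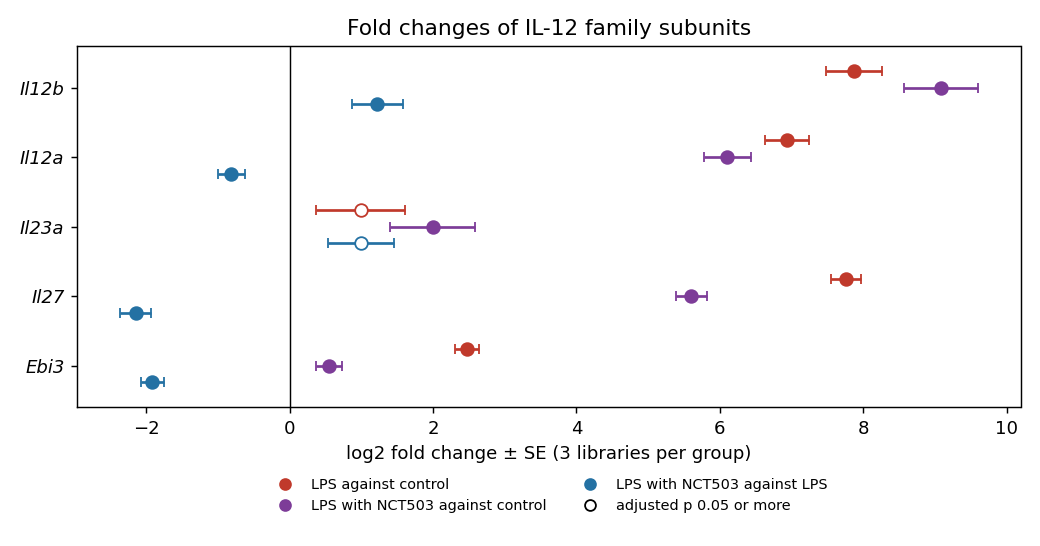
Log2 fold changes ± SE of the 5 subunits in the 3 comparisons, with open circles for an adjusted p of 0.05 or more. With NCT503 against LPS, Il27 (−2.15), Ebi3 (−1.92) and Il12a (−0.81) lie left of 0 and Il12b (1.22) right of it.

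Against control, the cells given LPS with NCT503 still had all 5 subunits called higher, where 40.4% of the 19930 genes tested were called, 20.7% higher and 19.7% lower. All 5 lay higher in every such library than in any control library. Of all genes 50.2% had groups apart, 25.3% higher and 24.9% lower. The control libraries are those of the comparison of LPS with control. Il12b rose by 9.09 ± 0.51 on the log2 scale (adjusted p = 4.886e-06), where LPS alone had given 7.88. Il12a rose by 6.11 ± 0.33 (6.94 with LPS alone) and Il27 by 5.60 ± 0.22 (7.76). Ebi3 came nearest to its control level, with 0.55 ± 0.18 (adjusted p = 0.0331) where LPS alone had given 2.47. The call of Ebi3 is lost under TMM scaling (0.47) and under CPM scaling (0.097), and without control replicate 1 (0.39) or 2 (0.58) or NCT503 replicate 1 (0.46) or 3 (0.62), with adjusted p of 0.0188 to 0.624 over 14 alternatives. Il23a rose by 2.0 ± 0.59 (adjusted p = 0.0212) on 20 reads against 6, a ratio of 4.82 with a counting interval of 1.87 to 14.7, and its call is lost in 7 of 13 alternatives.

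The order of the subunits per kb differed between the groups. In control, Ebi3 stood highest at 706 ± 137 normalized reads per kb, followed by Il27 at 25.2 ± 4.61, Il12b at 3.93 ± 2.51, Il12a at 1.67 ± 0.766 and Il23a at 0.626 ± 0.795. The ranges of Il12b and Il12a overlapped, as did those of Il12a and Il23a. Ebi3 made up 93.8% to 96.6% of the summed level of the 5 genes.

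With LPS, Il27 was highest at 5688 ± 1227 per kb, then Ebi3 at 3860.3 ± 247, Il12b at 959 ± 341, Il12a at 264 ± 26.9 and Il23a at 1.31 ± 0.202, and no neighbours in this order overlapped. Il12b made up 6.59% to 13.9% of the summed level.

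With LPS and NCT503, Il12b had the highest mean at 2353 ± 1063 per kb, then Il27 at 1276 ± 268, Ebi3 at 1024 ± 115, Il12a at 150.0 ± 19.3 and Il23a at 3.10 ± 0.187. Il12b overlapped Il27 because of replicate 2 (1126 per kb against 1072 to 1579), and Il27 overlapped Ebi3. Il12b made up 51.0%, 33.5% and 56.7% of the summed level in replicates 1 to 3, above every LPS library. This share rests on the contrast between Il12b and the other subunits, which was in view when the genes were chosen. The summed level itself was 9731 to 11847 with LPS and 3363 to 5907 with NCT503.

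The ratio of partner chains was taken within each library, which is independent of the scaling between libraries. For IL-12, Il12b per kb exceeded Il12a per kb by 4.65, 2.96 and 3.14 times in the LPS libraries and by 18.4, 7.11 and 22.8 times with NCT503. These 2 groups did not overlap, replicate 2 included. The contrast between Il12b and Il12a was in view when the genes were chosen, so this separation is a description and was given no test. In control the ratio was 4.11, 1.44 and 1.73, from 2 to 6 reads of Il12a per library.

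For IL-27, Ebi3 exceeded Il27 by 20.5, 36.5 and 29.5 times in control. The ratio of Ebi3 to Il27 was 0.876, 0.621 and 0.602 with LPS and 0.727, 0.936 and 0.783 with NCT503, so these groups overlapped. For IL-35, Ebi3 exceeded Il12a by 13.0 to 15.7 times with LPS and by 6.33 to 7.20 times with NCT503, without overlap. For IL-23, Il12b exceeded Il23a by 637 to 879 times with LPS and by 347 to 1010.0 times with NCT503, on 2 to 7 reads of Il23a per library.

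**Figure D3:**
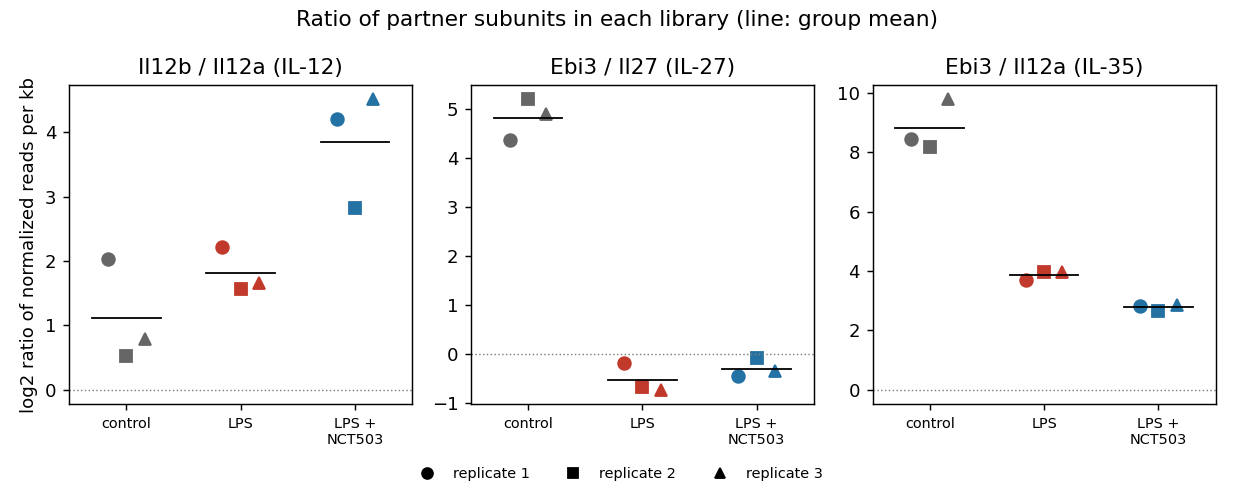
Log2 ratio of normalized reads per kb of partner subunits in each library, with replicates as symbols and group means as lines, and 0 marking equal levels. Il12b over Il12a has group means of 1.81 with LPS and 3.85 with NCT503, while Ebi3 over Il27 has −0.54 and −0.30.

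The genes closest to each subunit in pattern over the 9 libraries were found by the root-mean-square distance of log2 values centred on each gene's mean, among 10032 genes whose mean reached 50 normalized reads. Nearest to Ebi3 were Serp1 (0.143), Lrrc25 (0.155) and the peptide transporter gene Tap2 (0.16). Nearest to Il27 were the cytokine Il1a (0.263), Tarm1 (0.391) and the feedback inhibitor Socs3 (0.505), and nearest to Il12a were Lad1 (0.327), Tarm1 (0.484) and the adenosine receptor Adora2a (0.486). The nearest genes of Il12b lay farther off than those of the other subunits, and were Tnf (0.725), Cxcl3 (0.757) and Acod1 (0.774). Tnf went from a mean of 139 in control to 34648 with LPS and 48037 with NCT503, and its log2 fold change of 0.47 with NCT503 against LPS did not pass the test. Unlike Il12b, its highest LPS library was replicate 2. Among the NCT503 libraries Cxcl3 was highest in replicate 2 (3715, against 2410 and 2256), where Il12b was lowest. Acod1 had a lower mean with NCT503 (88146) than with LPS (113476), whereas Il12b had a higher one. Closeness over all 9 libraries, control included, therefore did not mean the same course with NCT503. For Il23a, whose pattern rests on few reads, the nearest were Fbln5 (0.308), Ctgf (0.326) and Ddr2 (0.359). Between subunits the smallest distance was that of Il12a and Il27 (0.701).

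Receptor genes for the family were measured in the same libraries. With LPS, 2 of 5 rose and 1 fell, where 20.5% and 21.4% of all genes did. Il12rb1, the chain shared by the IL-12 and IL-23 receptors, rose by 2.10 ± 0.24 and Il23r by 5.68 ± 0.53, and Il6st (gp130), the signalling chain for IL-27, fell by 1.33 ± 0.16 on the log2 scale. Il12rb2 (−0.32) and Il27ra (0.35) did not pass, but under CPM scaling Il12rb2 was called lower. The list's median went from 0.35 to −0.34 under that scaling, while the median of all genes went from −0.05 to −0.69. With NCT503 all 5 were called, 3 lower and 2 higher (32.6%, 15.7% and 16.9% of all genes), with the same counts under TMM and CPM scaling. Il12rb1 was at 976, 1512 and 2046 normalized reads with LPS and at 507, 591 and 370.2 with NCT503 (−1.59 ± 0.27, adjusted p = 0.00101). Il23r (−1.34) and Il27ra (−1.43) also fell. Il6st rose from 546, 461 and 587 to 1688, 1649 and 1653 (1.65 ± 0.17, adjusted p = 2.627e-05). Against control, at 1498, 1287 and 1239, Il6st did not pass the test with LPS and NCT503 (0.32, adjusted p = 0.105). Il12rb2 rose by 0.91 ± 0.27, but 1519 of its 3794 exon bases overlap Serbp1, which was at 3133 to 3930 in all libraries.

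Of the 6 kinase and STAT genes below these receptors, 5 rose with LPS, where 20.5% of all genes did (median log2 1.75, against −0.05 over all genes). Stat3, used by IL-23 and IL-27, rose by 2.79, Jak2 by 3.31, Tyk2 by 1.61 and Stat4, the STAT of IL-12, by 1.77. With NCT503 3 of the 6 fell, where 15.7% of all genes did (median −0.59, against 0.08 over all genes). Among the 3 were Tyk2 (−2.02) and Stat3 (−0.60), while Jak2 (−0.57), Jak1 (0.49) and Stat4 (0.29) did not pass. Under CPM scaling the call of Stat3 is lost and Jak1 is called higher.

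Of 18 transcription factors known to act on the subunit genes, most rose with LPS, and 10 of the 18 fell with NCT503. With LPS 14 of 18 rose, where 20.5% of all genes did (median 1.88, against −0.05 over all genes). Those of smallest p were Nfkbiz (4.95), Irf1 (3.94), Nfkb2 (4.03), Nfkb1 (2.92) and Batf (3.55), and under CPM scaling Jun and Fos were called lower. With NCT503 10 of 18 fell, where 15.7% of all genes did, and none was called higher (median −0.71, against 0.08 over all genes). Under CPM scaling 9 fell and Jun was called higher. Of the 10, those of smallest p were the AP-1 component Fos (−2.05), the interferon regulatory factors Irf8 (−1.86), Irf5 (−1.75) and Irf7 (−1.21), and the myeloid factor Spi1 (PU.1, −1.83). The NF-κB subunit c-Rel (Rel, 0.31), Cebpb (−0.16) and Nfkbiz (−0.28) were among those that did not pass the test. The NF-κB subunits Nfkb2 (−0.91) and Nfkb1 (−0.72) fell.

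Repressors and feedback genes followed a similar course. With LPS 7 of 8 rose, where 20.5% of all genes did (median 2.76, against −0.05 over all genes). Among the 7 were Socs1 (6.53) and Ets2 (4.03), and under CPM scaling 6 rose. Maf did not pass (−0.37) but was called lower under both TMM and CPM scaling. With NCT503 4 of 8 fell, where 15.7% of all genes did (median −0.59, against 0.08 over all genes). Under CPM scaling 3 fell and Ets2 was called higher. Socs1, an inhibitor of JAK kinases, fell by 3.44 on the log2 scale (adjusted p = 5.156e-06), Maf by 2.89 (adjusted p = 3.811e-07), Bcl3 by 1.69 and Nfkbid by 0.70. Maf, known as a repressor of Il12b and Il12a, was at a mean of 25415 ± 1547 normalized reads in control, 19569 ± 1156 with LPS and 2637 ± 178 with NCT503.

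Genes whose products speed or slow the decay of cytokine mRNA were mixed. With LPS 4 of 8 rose and 2 fell, where 20.5% and 21.4% of all genes did (median 0.39, against −0.05 over all genes). Under CPM scaling 2 were called higher and 4 lower, with a median of −0.31, against −0.69 over all genes. With NCT503 2 rose and 2 fell, where 16.9% and 15.7% of all genes did (median −0.27, against 0.08 over all genes). Under CPM scaling the median was −0.03, against 0.31 over all genes. Zfp36 (tristetraprolin) rose with LPS by 3.39 and fell with NCT503 (adjusted p = 0.00112). Zc3h12a (Regnase-1), a nuclease that cleaves Il12b mRNA, rose by 4.48 and fell by 0.73 (adjusted p = 0.00972). Zfp36l2 (1.72) and Rc3h1 (0.82) rose with NCT503, but the groups of Rc3h1 overlapped. Rc3h1 was at 1257, 678 and 1248 normalized reads with NCT503 and at 779, 514 and 480 with LPS.

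**Figure D4:**
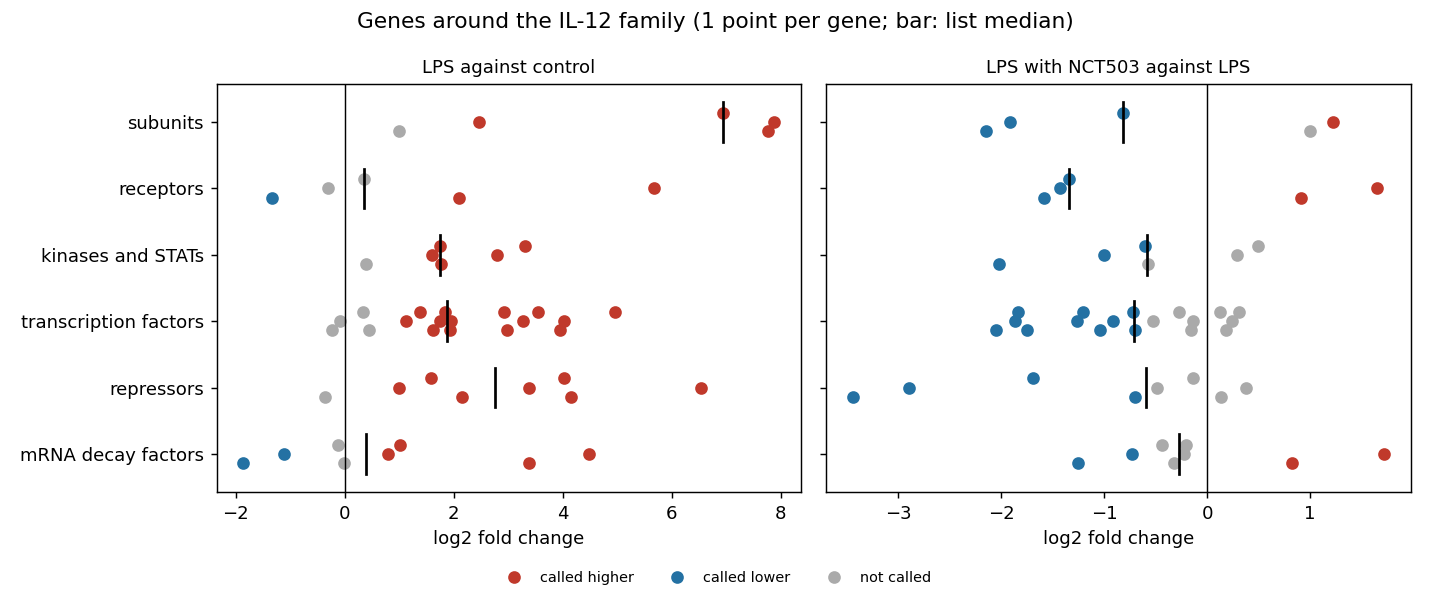
Log2 fold changes of the genes around the family, 1 point per gene and a bar at each list's median, with LPS against control on the left and LPS with NCT503 against LPS on the right. On the right 10 of 18 transcription factors and 4 of 8 repressors are called lower, where 15.7% of all genes were, and none of either list is called higher.

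Genes that IL-12 and IL-23 are known to induce in lymphocytes were also read in these cultures. With LPS 4 of the 6 tested rose, where 20.5% of all genes did. Among the 4 was Ifng, which went from 2.73, 0.70 and 0.80 normalized reads to 771, 683 and 1604. For Il22, 77 reads came from cells with LPS and 0 from control, at least 45.0-fold higher against 3 counts over the group. With NCT503 Ifng fell by 3.07 on the log2 scale, to 239, 46.8 and 122, and its transcription factor Tbx21 fell by 3.75. Markers of other cells also differed. Of 8 T and natural killer cell markers 5 fell with NCT503, where 15.7% of all genes did (under CPM scaling 2 fell and Klrb1c was called higher), with a summed level of 91.9 to 173 per kb in control, 109 to 211 with LPS and 29.8 to 58.9 with NCT503. Neutrophil markers, 7 of 8 in both tables and all 7 lower with NCT503, summed to 3912 to 6866, 2926 to 7161 and 264 to 511, Ly6g being in neither table. Of 7 stromal markers 3 fell, and the sums were 733 to 3266, 2137 to 4645 and 2062 to 5322. Of 6 B cell markers 4 were in both tables and 1 fell, with sums of 57.6 to 67.0, 9.40 to 26.2 and 7.18 to 17.6. Fewer cells of a type and less RNA per cell cannot be told apart in bulk RNA, and the part of these markers in the subunit values was not tested.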

How the data were processed

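RNA-seq of 9 libraries was aligned with TopHat2 to mm10, per the submitters' processing notes; no source used here names the read counter, annotation, strand setting or differential test. Per the file headers and values, the authors deposited, for each of 2 comparisons, signal per library (reads divided by a size factor) with group means, a log2 fold change, and a p-value with its adjusted form. All values (100%, tolerance 0.001) were whole multiples of the smallest in their column, so whole reads were recovered. LPS libraries held identical reads in both tables (100% of values over 21434 shared genes), and the 9 libraries were joined over these genes with median-of-ratios size factors.

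Tested genes averaged 1 or more normalized reads in either group, and were compared with limma 3.58.1 in R 4.3.3 (trend, robust) on log2(normalized reads + 1), adjusted by Benjamini-Hochberg over all genes. The fold change is on that scale and understates low genes. Each deposited table's own scaling was used for its comparison and the joint scaling for levels and for LPS with NCT503 against control. The test was checked on counts simulated with the same dispersion for every gene and changes only in genes above a minimum mean. That check does not cover few reads, as in Il23a, or a wide spread between libraries, as in Il12b. Alternatives were a pseudocount of 0.1, no filter, TMM and CPM scaling (library totals), edgeR 4.0.16 and DESeq2 1.42.0 on recovered reads, all 9 libraries in 1 fit, a replicate block and each library left out. edgeR called 7769, 6098 and 7548 genes in the 3 comparisons (LPS against control, LPS with NCT503 against LPS, LPS with NCT503 against control). Counting intervals (95%) and limits at 3 counts cover counting error only.

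The members, lists and tests were chosen with earlier results of these data known. Named genes are the 5 subunits, the 3 nearest genes of each, all 5 receptors and up to 5 genes of smallest p per list. Similar length of a 3′ untranslated region means a ratio of 0.8 to 1/0.8. Some list members are not reported here by name. Rel, Cebpb, Jun, Jak1, the macrophage and dendritic cell markers, Klrb1c and genes sharing exons with a member were named after their values were seen, as were further members of the lists (Zfp36, Zc3h12a and Rc3h1 are within the rule). Promoter motifs were chosen with the sequences in view.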

Additional observations from a re-analysis of the deposited data

How the results depend on the processing

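Under 14 alternatives per gene (13 for Il23a, which edgeR filtered out), no subunit changed direction. The calls of Il12b, Il12a, Il27 and Ebi3 with LPS and of Il27 and Ebi3 with NCT503 against LPS held in all 14. Library totals alone (CPM) moved the median log2 fold change of all genes from −0.05 to −0.69 with LPS, from 0.08 to 0.31 with NCT503 against LPS and from 0.05 to −0.37 with NCT503 against control. The share of calls that were higher went from 48.9% to 19.7%, from 52% to 67.3% and from 51.3% to 27.2%. CPM scaling ended the calls of Il12a with NCT503 against LPS (−0.57) and, against control, of Ebi3 (0.097) and Il23a (1.78), leaving 3 of 5 subunits called. TMM scaling ended that of Ebi3 (0.47), a pseudocount of 0.1 (3.37) and DESeq2 (2.29) that of Il23a against control, and all 9 libraries in 1 fit that of Il12b with NCT503 against LPS (1.22). Leaving out each library gave 0.98 to 1.69 for Il12b with NCT503 against LPS, and, against control, 0.39 to 0.68 for Ebi3, 1.5 to 2.57 for Il23a and 3 to 5 subunits called. Ratios of reads without length moved the log2 of Ebi3/Il27 with NCT503 to −0.11 and of Ebi3/Il12a to 3.34 with LPS and 2.23 with NCT503. The cause of lost calls was not tested.

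Replicate numbers were not treated as pairs. Deviations of same-numbered LPS and LPS with NCT503 libraries correlated at 0.458, 0.455 and −0.130 across 10683 genes, and LPS replicate 3 did not correlate best with its own number. The replicate block changed no subunit's call (Il12b with NCT503 against LPS 1.22, adjusted p = 0.00591) and moved the genes called from 8355 to 9714, from 6449 to 8186 and from 8061 to 8098. Depth limits Il23a, at 0 to 7 reads per library, and the control levels of Il12a and Il12b, at 2 to 6 and 4 to 19 reads.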
